A study of Mus musculus with 18 samples.

Results

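Gene expression was compared between peripheral naive CD4 T cells that lacked Cbl-b and cells that had it, both with the normal form of the kinase ZAP-70. The comparison used 6 of the 18 libraries of the series, 3 of Cbl-b-/- OTII cells and 3 of OTII cells, taken by genotype and tissue from the sample labels. All mice were on the C57BL/6 background and carried the OT-II transgenes, which encode a receptor against an ovalbumin peptide. The Cbl-b-/- OTII mice additionally lacked Cbl-b, through an allele whose deleted part the labels do not name, and neither do they name ages. Cells were pooled from spleens and lymph nodes and sorted as low for CD44, negative for CD25 and positive for the Va2 chain of the transgenic receptor. The labels name 3 Cbl-b-/- mice and 3 OTII mice without saying which mouse gave which library, so p-values reflect only how far these libraries vary. A pair of further groups was used only for contrast, Cbl-b-/-W131AOTII and W131AOTII cells of the same sort, 3 libraries each, whose mice carried ZAP-70 with the W131A substitution, and each of those libraries pooled cells of several mice. The series was designed to find the pathways under Cbl-b control in T cell anergy, and the comparison with normal ZAP-70 shows what loss of Cbl-b does without the W131A background. Column totals in the 6 libraries ran from 19708218 to 30543980 counts.

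Cbl-b is an E3 ubiquitin ligase of the CBL family. It restrains signalling from the T cell receptor and makes activation depend on costimulation through CD28, and T cells that lack it respond without CD28 and resist anergy. Several gene families described below respond to interferon-gamma, whose receptor signals through the kinases JAK1 and JAK2. They include the immunity-related GTPases (IRG) and the guanylate-binding proteins (GBP), which attack the vacuoles of intracellular microbes in mouse cells.

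Cblb transcripts were lower but still present in the knockout cells. Cblb (ENSMUSG00000022637, GRCm38 chromosome 16, 52031225 to 52208048, plus strand) was at 67.2, 51.0 and 90.5 CPM, counts relative to the TMM-scaled library total, in the 3 Cbl-b-/- OTII libraries, against 124, 122 and 142 CPM in the 3 OTII libraries. The groups did not overlap, and the log2 fold change of Cblb was -0.89 (SE 0.17, adjusted p = 0.00605). Here and below, adjusted p is from edgeR's quasi-likelihood test, Benjamini-Hochberg adjusted over 15204 genes, with a threshold of 0.05. Cbl, which encodes the related ligase c-Cbl, was at 50.8, 46.2 and 62.5 CPM in Cbl-b-/- OTII libraries, against 74.0, 70.8 and 77.7 CPM in OTII libraries, with a log2 fold change of -0.48 (adjusted p = 0.0292). That call was lost without Cbl-b-/- OTII replicate 1 or 2 or any 1 of the OTII libraries, with an adjusted p of up to 0.14. Zap70 was at 248, 334 and 214 CPM in Cbl-b-/- OTII libraries, against 272, 350.2 and 321 CPM in OTII libraries, and the groups overlapped.

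Cd4 and Cd44 give only a partial check of the sort, and transcripts of CD25 and Va2 are not given here. Of 12 CD4 T cell defining markers 2 were called higher and 0 lower, against 5.22% higher and 2.99% lower of all genes. None of the 12 was called higher without Cbl-b-/- OTII replicate 2 or any 1 of the OTII libraries. The summed level of the 12 overlapped, at 19970 to 30850 CPM in Cbl-b-/- OTII libraries, against 20760 to 25050 CPM in OTII libraries. Cd4 was at 1320, 1334 and 1257 CPM in Cbl-b-/- OTII libraries, against 1394, 1549 and 1539 CPM in OTII libraries. Cd44 was not higher in the knockout cells, at 23.7, 29.8 and 47.8 CPM in Cbl-b-/- OTII libraries, against 46.4, 53.2 and 50.2 CPM in OTII libraries (adjusted p = 0.0795). The summed level of 18 B cell markers overlapped between the groups, at 2119 to 2781 CPM in Cbl-b-/- OTII libraries, against 2555 to 2917 CPM in OTII libraries. Of the 18, 0 passed the test with edgeR, DESeq2 or limma-voom, and 1 was lower at an unadjusted p under 0.05, while 5 were lower with no filter on low counts and 2 in a fit of the 6 libraries alone. Libraries also differed in base composition and in ribosomal protein transcripts. Ribosomal protein genes took 1.06%, 1.79% and 0.766% of the CPM in Cbl-b-/- OTII libraries, against 0.636%, 0.725% and 0.637% in OTII libraries. Across all genes, the log2 fold change had a Spearman correlation of -0.27 with GC content and -0.276 with transcript length, so genes called lower were richer in GC (median 54.2%) than genes called higher (45.9%), against 49.0% of all tested. Most lists below are also counted in a fit with offsets for GC content and length, and beyond that fit the part of these differences in the results was not tested.

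Of 15204 genes tested, 1249 (8.21%) passed the threshold, 794 higher (5.22%) and 455 lower (2.99%) in Cbl-b-/- OTII cells, with a median log2 fold change over all genes of 0.04. At least 2-fold changes were reached by 303 of the genes that rose and 57 of those that fell. The number of calls depended on single libraries. It was 427 without Cbl-b-/- OTII replicate 2, 720 without OTII replicate 1, 339 without OTII replicate 2 and 150 without OTII replicate 3, against 860 and 1586 without Cbl-b-/- OTII replicate 1 and replicate 3. In every 1 of these 6 fits 139 genes were called, 94 higher and 45 lower. In a fit with GC and length offsets, 613 of the 1249 were called again, 437 of those higher and 176 of those lower. Genes given below as called in OTII cells passed the threshold in all 6 fits that left out a library unless the text says otherwise. With the offsets the calls of Cbl, Plcg1, Vav1, Rapgef1, Socs3, Ifng, Gpr15 and Dubr, described here and below, were lost.

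The shares of called genes in 23 of the 34 gene lists, plotted by direction, ranged widely. The ribosomal protein list, with 40 of 81 members higher and 0 lower, was among those not plotted. The IRG and GBP list stood highest, with 18 of 20 members higher. The list of proximal receptor signalling genes had 1 of 28 members higher and 5 lower. Over all genes 5.22% were higher and 2.99% lower.

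**Figure D1:**
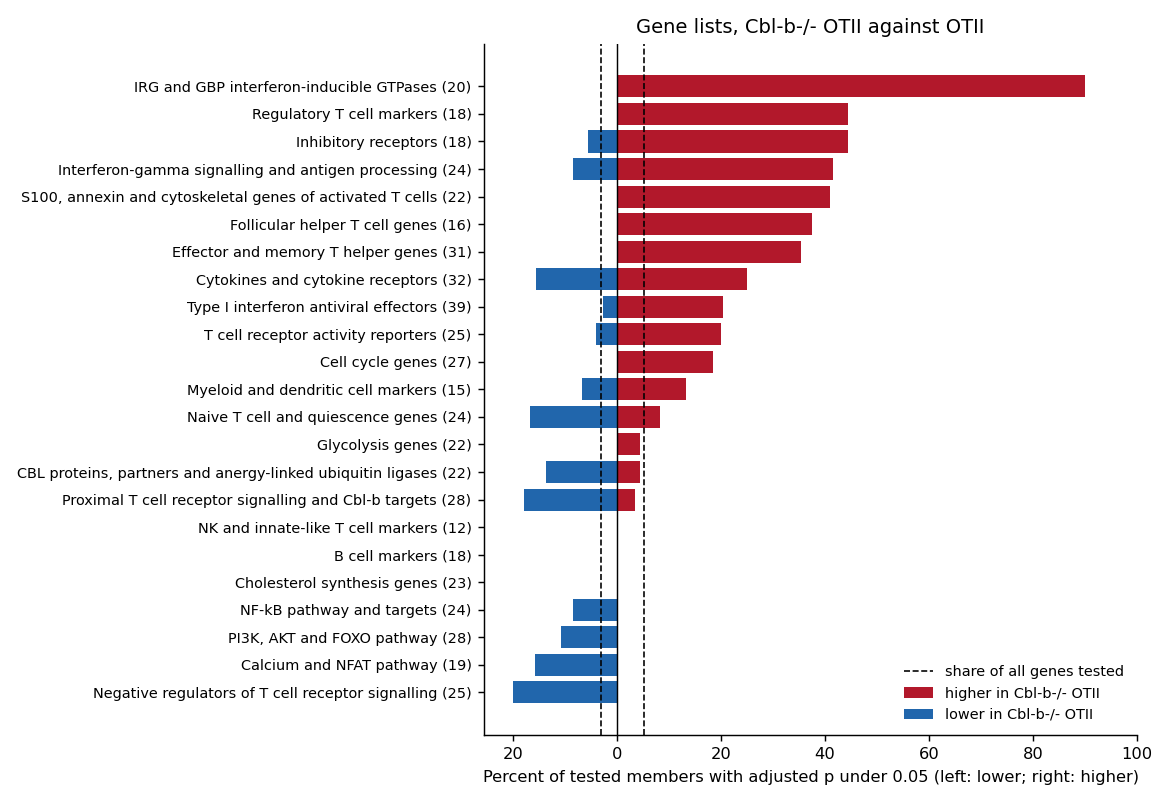
Percent of tested members of 23 of the 34 gene lists with adjusted p under 0.05 in Cbl-b-/- OTII against OTII cells, higher to the right and lower to the left, with the number of tested members in brackets. Dashed lines mark the shares over all 15204 genes, 5.22% higher and 2.99% lower, and the IRG and GBP list (18 of 20 higher, 0 lower) lies farthest to the right.

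The interferon-inducible GTPases rose almost as a family. All 20 listed IRG and GBP genes passed the filter on low counts, and 18 of them rose, 0 fell and 2 missed the threshold, against 5.22% higher and 2.99% lower of all genes. The median log2 fold change over the 20 was 1.13, against 0.04 over all genes, and all 20 values were positive. The members' libraries did not overlap between the groups for 19 of 20 genes, against 14.9% of all genes that were higher without overlap and 30.3% that did not overlap in either direction. The members' summed level was 6407 to 7212 CPM in Cbl-b-/- OTII libraries, against 3014 to 3554 CPM in OTII libraries. In bulk libraries more RNA per cell and more cells that express a gene cannot be told apart. Leaving out 1 library at a time left 14 to 19 members higher and 0 lower, and 14 members passed in every such fit. The offsets for GC content and length also gave 18 higher and 0 lower. Igtp, Gbp3, Gm12250, Gm4951 and Tgtp1 were named by the rule given with the processing, and the other members after their values were seen.

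The promoters of these genes are shown because most of the list moved together. Of the 20 genes, 12 had a promoter entry in RefSeq (GRCm38.p6), and the 250 bases before the start were searched on both strands for the letters TTCNNNGAA, the GAS motif of promoters that respond to interferon-gamma, and for 2 copies of GAAA with any 2 bases between them, the core of the ISRE motif bound by IRF factors. The GAS letters were found for 7 of the 12 genes (58.3%), against 8.13% of 27025 genes with an entry. The ISRE core was found for 11 of 12 (91.7%), against 3.46%, and a match of either kind for 11 of 12, against 11.1%. A match describes these letters and says nothing of binding in these cells. The sequences below run 5′ to 3′ on the strand of the gene and end at the base before the start, and capitals mark the matches on either strand. They are Igtp (chr11:58199306-58199555, plus strand), Irgm2 (chr11:58214727-58214976, plus strand), Tgtp1 (chr11:48992247-48992496, minus strand), Gm12250 (chr11:58183593-58183842, plus strand), Gbp3 (chr3:142559794-142560043, plus strand) and Gbp2 (chr3:142620413-142620662, plus strand).
Igtp: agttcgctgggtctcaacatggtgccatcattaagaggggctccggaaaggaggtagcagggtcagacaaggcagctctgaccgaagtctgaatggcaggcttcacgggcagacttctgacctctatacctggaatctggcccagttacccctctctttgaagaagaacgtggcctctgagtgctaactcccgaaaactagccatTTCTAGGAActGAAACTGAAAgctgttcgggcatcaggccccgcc
Irgm2: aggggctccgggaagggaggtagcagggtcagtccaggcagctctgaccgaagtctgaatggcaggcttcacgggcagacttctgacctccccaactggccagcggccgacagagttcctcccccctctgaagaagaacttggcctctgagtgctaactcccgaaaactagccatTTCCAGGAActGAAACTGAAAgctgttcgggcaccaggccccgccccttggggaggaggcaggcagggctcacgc
Tgtp1: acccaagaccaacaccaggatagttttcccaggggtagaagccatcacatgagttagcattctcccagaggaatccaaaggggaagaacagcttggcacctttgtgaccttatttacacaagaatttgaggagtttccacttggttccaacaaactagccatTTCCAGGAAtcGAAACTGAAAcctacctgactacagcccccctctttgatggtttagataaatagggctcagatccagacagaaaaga
Gm12250: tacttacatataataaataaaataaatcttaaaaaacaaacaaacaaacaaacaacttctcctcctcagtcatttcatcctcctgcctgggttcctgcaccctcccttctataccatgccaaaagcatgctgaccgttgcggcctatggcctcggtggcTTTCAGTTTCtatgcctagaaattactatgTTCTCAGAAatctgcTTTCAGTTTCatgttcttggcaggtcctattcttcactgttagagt
Gbp3: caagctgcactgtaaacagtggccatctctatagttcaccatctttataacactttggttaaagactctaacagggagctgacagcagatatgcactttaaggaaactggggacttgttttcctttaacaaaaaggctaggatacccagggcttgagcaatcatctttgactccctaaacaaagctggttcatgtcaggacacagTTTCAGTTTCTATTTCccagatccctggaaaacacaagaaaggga
Gbp2: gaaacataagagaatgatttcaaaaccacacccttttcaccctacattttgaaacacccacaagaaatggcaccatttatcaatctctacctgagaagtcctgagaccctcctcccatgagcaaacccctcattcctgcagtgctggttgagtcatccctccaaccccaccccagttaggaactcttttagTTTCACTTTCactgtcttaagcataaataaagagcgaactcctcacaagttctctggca
In Igtp, Irgm2 and Tgtp1 the GAS letters are followed after 2 bases by the ISRE core. The pair spans the bases 45 to 25 before the start in Igtp, 75 to 55 in Irgm2 and 88 to 68 in Tgtp1. Gbp3 and Gbp2 hold the ISRE core without the GAS letters in the windows shown. Gm12250 holds both, 61 and 46 bases before the start, with a second ISRE core farther upstream. RefSeq gives Gbp3 a second promoter (chr3:142560106-142560355), not shown, which held neither match. The shares above count a gene with a match in any of its promoters. By promoter the ISRE core was found in 11 of 13 (84.6%), against 2.98%, and the GAS letters in 7 of 13 (53.8%), against 7.02%.

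The regulatory IRG proteins, Igtp, Irgm1 and Irgm2, keep the other IRG proteins inactive on the cell's own membranes. Igtp (ENSMUSG00000078853, GRCm38 chromosome 11, 58199556 to 58207591) was at 1575, 1497 and 1457 CPM in Cbl-b-/- OTII libraries, against 694, 665 and 630.5 CPM in OTII libraries. Its lowest knockout library was above 2 times its highest OTII library, and it rose by 1.19 on the log2 scale (SE 0.11, adjusted p = 1.06e-05), among the smallest adjusted p-values of the comparison. Irgm1 was at 738, 662 and 771 CPM in Cbl-b-/- OTII libraries, against 452, 433 and 422 CPM in OTII libraries (log2 fold change 0.73, adjusted p = 0.00188). Irgm2 was at 287, 240.3 and 314 CPM in Cbl-b-/- OTII libraries, against 178, 139 and 150.0 CPM in OTII libraries (log2 fold change 0.85, adjusted p = 0.000541). All 3 genes were higher in every knockout library than in any OTII library, with smaller steps for Irgm1 and Irgm2 than for Igtp. The annotated span of Irgm2 overlaps that of Igtp on the same strand, so reads in the shared part could be counted for neither or either.

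The effector IRG proteins load onto microbial vacuoles and break them. Gm12250, for which RefSeq gives the synonym Irgb10, was at 297, 324 and 249 CPM in Cbl-b-/- OTII libraries, against 129.9, 94.8 and 96.4 CPM in OTII libraries (log2 fold change 1.44, SE 0.15, adjusted p = 2.52e-05). The annotation used for names lists it as a processed pseudogene, so its counts are uncertain. Tgtp1 was at 231, 232 and 204 CPM in Cbl-b-/- OTII libraries, against 98.1, 77.2 and 74.9 CPM in OTII libraries (log2 fold change 1.41, adjusted p = 6.31e-05). Its near-identical neighbour Tgtp2 rose by 1.22 (adjusted p = 0.000162), and no source used here says how reads were split between the copies. Iigp1 was at 621, 529 and 714 CPM in Cbl-b-/- OTII libraries, against 203, 148 and 156 CPM in OTII libraries (log2 fold change 1.88, adjusted p = 0.000121). The IRG-related gene Gm4951 was at 113, 93.4 and 129 CPM in Cbl-b-/- OTII libraries, against 14.6, 14.3 and 13.9 CPM in OTII libraries. Gm4951 rose by 2.97 on the log2 scale (SE 0.29, adjusted p = 1.06e-05), and its 3 OTII libraries lay within 1 CPM of each other. Ifi47, an IRG protein that was listed with the antiviral genes, was at 1917, 2296 and 1713 CPM in Cbl-b-/- OTII libraries, against 939.9, 856 and 805 CPM in OTII libraries (log2 fold change 1.19, adjusted p = 0.000162).

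Among the GBP proteins, which coat microbial membranes and drive inflammasome responses, members on both chromosome 3 and chromosome 5 were higher. On chromosome 3, Gbp2 was at 705, 636 and 597 CPM in Cbl-b-/- OTII libraries, against 286, 325 and 313 CPM in OTII libraries (log2 fold change 1.07, adjusted p = 0.000162). Gbp3 was at 101, 94.4 and 105 CPM in Cbl-b-/- OTII libraries, against 45.0, 41.4 and 38.5 CPM in OTII libraries (log2 fold change 1.26, SE 0.13, adjusted p = 2.52e-05). Gbp5 was at 85.5, 77.8 and 89.3 CPM in Cbl-b-/- OTII libraries, against 47.2, 48.8 and 46.7 CPM in OTII libraries (log2 fold change 0.82, adjusted p = 0.000898). In all 3 genes the knockout libraries lay close together and well above the OTII libraries. On chromosome 5, Gbp10 was at 84.7, 89.9 and 83.2 CPM in Cbl-b-/- OTII libraries, against 30.4, 18.8 and 16.5 CPM in OTII libraries (log2 fold change 1.97, adjusted p = 0.000103). Gbp4 was at 884, 682 and 851 CPM in Cbl-b-/- OTII libraries, against 482, 329 and 350.1 CPM in OTII libraries (log2 fold change 1.06, adjusted p = 0.00475). Gbp7 also rose (log2 fold change 0.76, adjusted p = 0.00325). Gbp8 (0.94), Gbp2b (2.02), Gbp6 (0.86) and Gbp9 (0.82) were called on all libraries, but the call was lost without OTII replicate 3 for all 4. It was also lost without OTII replicate 2 for Gbp6 and Gbp9, and without Cbl-b-/- OTII replicate 1 or 3 for Gbp9. The annotated spans of Gbp4, Gbp8 and Gbp9 overlap, and Gbp6 and Gbp10 are near-identical, so counts of these members are uncertain. The 2 members not called were Gbp11, at 33.8, 22.2 and 34.6 CPM in Cbl-b-/- OTII libraries, against 20.9, 9.95 and 12.7 CPM in OTII libraries (adjusted p = 0.0618), and Gm5431, at 1.15, 0.273 and 0.717 CPM in Cbl-b-/- OTII libraries, against 0.134, 0.171 and 0.502 CPM in OTII libraries (adjusted p = 0.325).

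**Figure D2:**
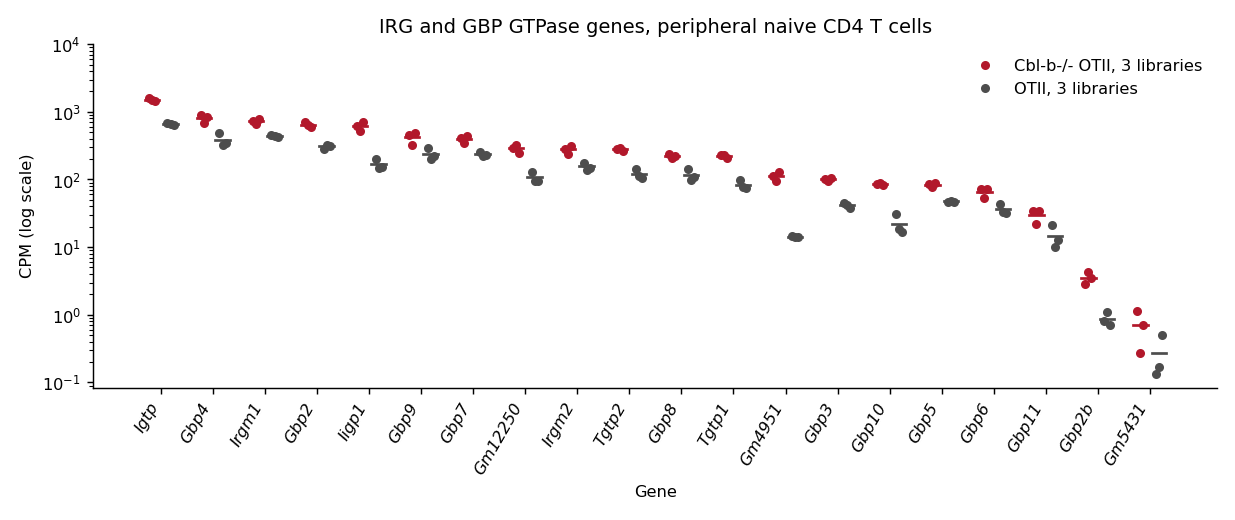
CPM on a log scale of the 20 IRG and GBP genes in each library, with Cbl-b-/- OTII libraries to the left and OTII libraries to the right of each gene and bars at the means of 3 libraries. The groups do not overlap for 19 of the 20 genes, the exception being Gm5431, and Igtp is the most abundant (1457 to 1575 CPM in Cbl-b-/- OTII libraries, 630.5 to 694 CPM in OTII libraries).

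Of 24 listed genes of interferon-gamma signalling and antigen processing, 10 rose and 2 fell, against 5.22% higher and 2.99% lower of all genes. Their median log2 fold change was 0.38, and 12 rose and 1 fell with the GC and length offsets. The number higher was 5 without OTII replicate 3 and 7 to 11 in the other such fits, and the number lower was 0 without Cbl-b-/- OTII replicate 1, OTII replicate 2 or OTII replicate 3 and 1 in the others. Socs1, a feedback inhibitor of JAK kinases, was at 84.3, 105 and 68.9 CPM in Cbl-b-/- OTII libraries, against 45.1, 46.5 and 46.4 CPM in OTII libraries (log2 fold change 0.90, adjusted p = 0.00551). Cd274, which encodes PD-L1, was at 104, 87.7 and 116 CPM in Cbl-b-/- OTII libraries, against 61.4, 55.1 and 48.2 CPM in OTII libraries (log2 fold change 0.90, adjusted p = 0.00285). The knockout libraries of Socs1 and Cd274 were all above the OTII libraries. Serpina3g, a serine protease inhibitor induced by interferon-gamma, was at 20.8, 27.5 and 21.3 CPM in Cbl-b-/- OTII libraries, against 3.87, 4.75 and 4.02 CPM in OTII libraries (log2 fold change 2.46, adjusted p = 6.31e-05). The neighbouring paralog Serpina3f was at 5.20, 3.18 and 2.80 CPM in Cbl-b-/- OTII libraries, against 0.200, 0.137 and 0.215 CPM in OTII libraries (log2 fold change 4.30, adjusted p = 0.0011). All 3 knockout libraries were above the OTII libraries for both paralogs. Outside the list, Ube2l6, which encodes the ubiquitin-conjugating enzyme for ISG15, was at 97.7, 96.0 and 61.5 CPM in Cbl-b-/- OTII libraries, against 23.1, 18.4 and 20.1 CPM in OTII libraries (log2 fold change 2.05, adjusted p = 6.05e-05). Il18bp, a soluble inhibitor of interleukin-18, was at 44.1, 43.0 and 35.0 CPM in Cbl-b-/- OTII libraries, against 13.8, 17.5 and 13.4 CPM in OTII libraries (log2 fold change 1.45, adjusted p = 7.93e-05). The immunoproteasome subunit Psmb9 had a log2 fold change of 1.01, with a call that was lost without OTII replicate 3 (adjusted p = 0.0501), and its highest value, 1119 CPM, was in Cbl-b-/- OTII replicate 2. Jak1 (-0.50) and Socs3 (-0.48) were called lower. The call was lost for Jak1 without Cbl-b-/- OTII replicate 1 or 2 or any 1 of the OTII libraries, and for Socs3 without Cbl-b-/- OTII replicate 1 or 3 or OTII replicate 2 or 3. The transcript of interferon-gamma itself was rare, with 27 counts over the 3 Cbl-b-/- OTII libraries and 2 counts over the 3 OTII libraries. Ifng was called higher (adjusted p = 0.0292), but not without Cbl-b-/- OTII replicate 2, OTII replicate 1 or OTII replicate 3.

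Fewer calls than in the GTPase list fell on antiviral effector genes, which type I interferon induces. Over all genes 5.22% were called higher and 2.99% lower. Of 40 listed genes 39 passed the filter on low counts, and of these 8 rose and 1 fell, with a median log2 fold change of 0.20, and the number higher was 1 without OTII replicate 3, 2 without OTII replicate 2, 3 without Cbl-b-/- OTII replicate 2 and 5 without Cbl-b-/- OTII replicate 1. Under the GC and length offsets 9 rose and 1 fell. Their summed level was 7723 to 9360 CPM in Cbl-b-/- OTII libraries, against 5698 to 6964 CPM in OTII libraries. Ifi47, described above, was the member called in every fit. Log2 fold changes in the list ran from -0.62 for Slfn5 to 3.92 for Ifitm2. Among the 30 members not called were Ifit3 and Rsad2, which were named after their values were seen. Ifit3 was at 155, 136 and 121 CPM in Cbl-b-/- OTII libraries, against 150.1, 104 and 105 CPM in OTII libraries (adjusted p = 0.570). Rsad2, which encodes viperin, was at 40.3, 32.2 and 35.0 CPM in Cbl-b-/- OTII libraries, against 55.8, 49.4 and 42.1 CPM in OTII libraries (adjusted p = 0.152). The groups overlapped for Ifit3, and Rsad2 was lower in all 3 knockout libraries.

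The response to Cbl-b loss was set beside that in cells with W131A ZAP-70, which shares no library with it, and the difference between the effects was tested. In Cbl-b-/-W131AOTII against W131AOTII cells 1407 genes were called (9.25%), 483 higher (3.18%) and 924 lower (6.08%), and this count was 124 to 1411 when 1 of those 6 libraries was left out. It was lowest without Cbl-b-/-W131AOTII replicate 1 (124), followed by W131AOTII replicate 2 (262), W131AOTII replicate 3 (413), Cbl-b-/-W131AOTII replicate 2 (550) and Cbl-b-/-W131AOTII replicate 3 (689). Both comparisons called 284 genes in the same direction (1.87% of genes tested), which is 22.7% of the calls in OTII cells and 20.2% of those in W131AOTII cells, and 11 in opposite directions. The Cbl-b effect itself differed between the backgrounds for 96 genes (0.631%), of which 90 were more positive in OTII cells (0.592%) and 6 more negative. That count was 56 without OTII replicate 2, 49 without OTII replicate 3 and 169 without Cbl-b-/- OTII replicate 3, and 65 to 119 without any 1 of the other 9 libraries. W131AOTII replicate 2 stood apart in markers of other cells, since the summed level of the 18 B cell markers was 6911 CPM in it and 2626 and 2638 CPM in the other W131AOTII libraries, and Lyz2 at 61.8 CPM against 3.66 and 11.8 CPM there. Results that rest on it are given with and without it.

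The GTPases were higher without Cbl-b in OTII cells and mostly not in W131AOTII cells. In Cbl-b-/-W131AOTII against W131AOTII cells their median log2 fold change was 0.13, with 4 members called higher and 1 lower. Those counts fell to 1 and 0 without Cbl-b-/-W131AOTII replicate 1, 2 or 3 or W131AOTII replicate 2, and were 2 and 0 without W131AOTII replicate 3. Their summed level was 3311 to 4197 CPM in Cbl-b-/-W131AOTII libraries, against 2740 to 3731 CPM in W131AOTII libraries. The difference between the effects passed the test for 9 of the 20 genes, all in the direction of a larger effect in OTII cells, with a median difference of 1.0. It passed for 5 members without OTII replicate 2 or 3, Cbl-b-/-W131AOTII replicate 2 or 3 or W131AOTII replicate 3, and for 11 without W131AOTII replicate 2. Igtp, Gm12250, Gbp2, Gbp5 and Irgm1 passed in all 12 fits that left out a library. Igtp was at 758, 628 and 699.5 CPM in Cbl-b-/-W131AOTII libraries, against 681, 613 and 772 CPM in W131AOTII libraries, so the groups overlapped there, and the difference was 1.17 (SE 0.16, adjusted p = 0.000569). For Gbp2 the difference was 1.31 (adjusted p = 0.00211), for Gm12250 1.40 (adjusted p = 0.00184), and for Irgm1 and Gbp5 1.15 (adjusted p = 0.00184 and 0.00243). Gm4951 rose in both backgrounds, with a log2 fold change of 1.62 in W131AOTII cells (adjusted p = 0.00294) that passed in all 6 fits that left out a library there, and the difference of 1.35 did not pass (adjusted p = 0.150).

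The antiviral genes were mostly lower without Cbl-b in W131AOTII cells. There 0 of 39 members rose and 28 fell, with a median log2 fold change of -1.25, and 20 to 25 fell when any 1 of the 6 libraries was left out, 25 without W131AOTII replicate 2. Markers of other cells moved in the same comparison. Of 18 B cell markers 0 rose and 16 fell, with a median log2 fold change of -2.83, and 7 fell with a median of -1.36 without W131AOTII replicate 2, against 0 without Cbl-b-/-W131AOTII replicate 1. Their summed level was 1739 to 1911 CPM in Cbl-b-/-W131AOTII libraries, against 2626 to 6911 CPM in W131AOTII libraries. Of 15 myeloid and dendritic cell markers 0 rose and 5 fell, and 1 fell without W131AOTII replicate 2 or Cbl-b-/-W131AOTII replicate 1. Their part in the fall of the antiviral genes was not tested. The difference between the effects passed for 20 of 39 members, 23 without W131AOTII replicate 2 and 17 to 23 over all 12 fits, with a median difference of 1.51. Ifitm3, which blocks viral entry, was at 7.20, 9.96 and 5.22 CPM in Cbl-b-/- OTII libraries, against 9.71, 6.80 and 6.56 CPM in OTII libraries, and at 1.90, 1.49 and 1.98 CPM in Cbl-b-/-W131AOTII libraries, against 17.0, 15.1 and 21.5 CPM in W131AOTII libraries. Its effects were -0.05 in OTII cells and -3.31 in W131AOTII cells, a difference of 3.26 (adjusted p = 0.000316). Isg15, a ubiquitin-like modifier, was at 86.2, 149 and 55.7 CPM in Cbl-b-/- OTII libraries, against 65.2, 57.1 and 50.7 CPM in OTII libraries, and at 23.4, 23.5 and 25.5 CPM in Cbl-b-/-W131AOTII libraries, against 99.3, 79.9 and 111 CPM in W131AOTII libraries (difference 2.75, adjusted p = 0.00126). Both genes overlapped between the groups in OTII cells and fell without overlap in W131AOTII cells. Oasl2 (difference 2.25, adjusted p = 0.000204), Ifit3 (2.24, adjusted p = 0.000293) and Rsad2 (2.07, adjusted p = 0.000738) showed the same order of effects and, like Ifitm3 and Isg15, passed in all 12 fits. Oasl2 was called higher in OTII cells on all libraries (log2 fold change 0.61, adjusted p = 0.0463), a call that was lost in each of the 6 fits that left out a library. Ube2l6 had log2 fold changes of 2.05 in OTII cells and -0.85 in W131AOTII cells, and the difference of 2.89 also passed in all 12 fits (adjusted p = 0.000204). The plot of both effects for the GTPases and the antiviral genes has nearly all points above the line of equal change.

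**Figure D3:**
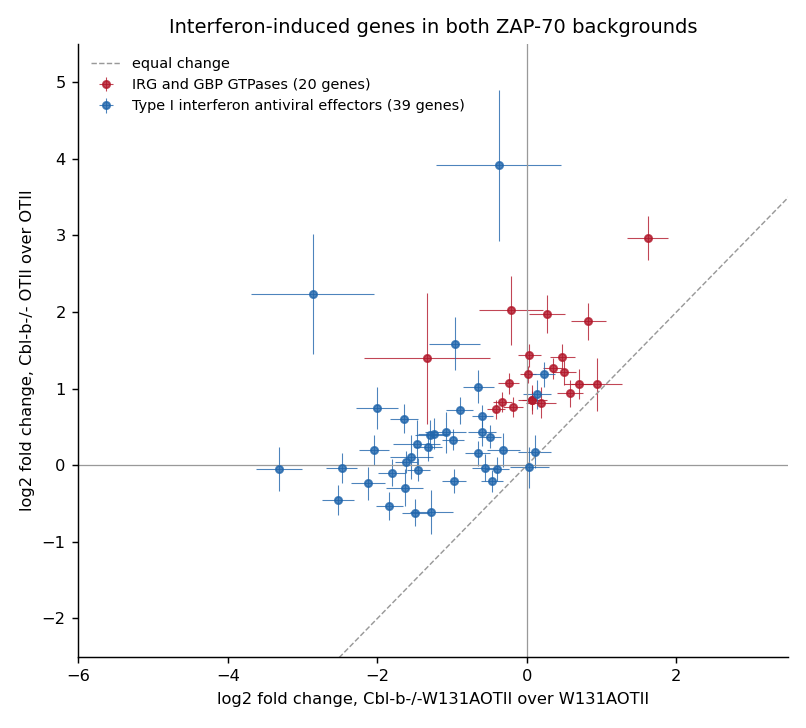
Log2 fold changes on loss of Cbl-b in OTII cells (vertical axis) against those in W131AOTII cells (horizontal axis) for 20 IRG and GBP genes and 39 type I interferon genes, with bars of 1 SE either side. The GTPases have a median of 1.13 in OTII cells and 0.13 in W131AOTII cells, and the type I interferon genes a median of 0.20 in OTII cells and -1.25 in W131AOTII cells.

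Transcripts of effector T cells were present at low levels in the sorted naive cells, and some of them were higher without Cbl-b. Of 31 listed effector and memory genes 11 rose, 0 fell and 20 did not pass, against 5.22% higher and 2.99% lower of all genes. The median log2 fold change of the 31 genes was 1.29. Their summed level overlapped between the groups, at 682 to 833 CPM in Cbl-b-/- OTII libraries, against 632 to 712 CPM in OTII libraries. With the GC and length offsets 8 rose and 2 fell, and the number higher was 5 without Cbl-b-/- OTII replicate 2 or OTII replicate 1, 7 without OTII replicate 2 and 4 without OTII replicate 3. Cxcr3, the chemokine receptor of type 1 helper cells, was at 18.9, 20.4 and 22.9 CPM in Cbl-b-/- OTII libraries, against 2.77, 2.80 and 2.01 CPM in OTII libraries. It rose by 3.03 on the log2 scale (SE 0.29, adjusted p = 1.06e-05), and the groups were far apart. In W131AOTII cells Cxcr3 was at 6.68, 11.5 and 12.2 CPM without Cbl-b, against 14.5, 18.5 and 9.62 CPM with it, so that the difference between the effects was 3.53 (adjusted p = 0.000204, past the threshold in all 12 fits). Gzmb, which encodes the cytotoxic protease granzyme B, was at 11.2, 11.4 and 6.55 CPM in Cbl-b-/- OTII libraries, against 0.334, 0.752 and 0.574 CPM in OTII libraries (log2 fold change 4.12, adjusted p = 0.00045). Klrg1, an inhibitory receptor of terminally differentiated cells, had 573 counts over the Cbl-b-/- OTII libraries and 1 count over the OTII libraries, a ratio of 700 after scaling (95% counting interval 125 to 27700). Its level was 9.40, 9.27 and 6.18 CPM in Cbl-b-/- OTII libraries, against 0.0334, 0 and 0 CPM in OTII libraries. Members called on all libraries but lost in some fits included Tbx21, the transcription factor T-bet, at 3.25, 5.55 and 2.73 CPM in Cbl-b-/- OTII libraries, against 0.934, 1.44 and 0.574 CPM in OTII libraries, and lost without Cbl-b-/- OTII replicate 2, OTII replicate 1 or OTII replicate 3.

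Of 26 listed chemokine receptor and migration genes 25 passed the filter on low counts. Of these 4 rose and 2 fell, against 5.22% higher and 2.99% lower of all genes. The same numbers rose and fell with the GC and length offsets. The number lower was 1 without Cbl-b-/- OTII replicate 3 and 0 without any 1 of the other 5 libraries. The summed level of the list was 10600 to 11870 CPM in Cbl-b-/- OTII libraries, against 12090 to 13390 CPM in OTII libraries. Among the members that rose, Ccr2 was at 6.25, 4.77 and 4.61 CPM in Cbl-b-/- OTII libraries, against 0.267, 0.103 and 0.430 CPM in OTII libraries (log2 fold change 4.27, adjusted p = 0.00405). Ccr8 was at 5.6, 6.09 and 4.06 CPM in Cbl-b-/- OTII libraries, against 1.27, 0.889 and 1.22 CPM in OTII libraries (log2 fold change 2.21, adjusted p = 0.000162). Neither overlapped between the groups. The lymph node homing receptor Ccr7 did not pass (log2 fold change -0.07). Calcium-binding S100 proteins and galectins, which are abundant in activated and memory cells, were listed with annexins and cytoskeletal genes. Of the 22 genes 9 rose, 0 fell and 13 did not pass, with a median log2 fold change of 0.86. Their summed level overlapped between the groups, at 2475 to 3743 CPM in Cbl-b-/- OTII libraries, against 2490 to 3029 CPM in OTII libraries. With the GC and length offsets 8 rose and 0 fell, and the number higher was 4 without Cbl-b-/- OTII replicate 2, 6 without Cbl-b-/- OTII replicate 3 and 3 without OTII replicate 1, 2 or 3. S100a6 was at 8.60, 24.7 and 7.65 CPM in Cbl-b-/- OTII libraries, against 0.801, 1.23 and 0.825 CPM in OTII libraries (log2 fold change 3.83, adjusted p = 0.00045). S100a4 was at 2.15, 7.05 and 1.91 CPM in Cbl-b-/- OTII libraries, against 0.0668, 0.205 and 0.143 CPM in OTII libraries (log2 fold change 4.70, adjusted p = 0.000147). Both were highest in Cbl-b-/- OTII replicate 2, the library with the largest share of ribosomal protein transcripts (1.79%), and without it their log2 fold changes were 3.08 for S100a6 and 3.83 for S100a4. Lgals3, galectin-3, was more even, at 5.35, 4.46 and 3.75 CPM in Cbl-b-/- OTII libraries, against 0.567, 0.821 and 0.789 CPM in OTII libraries (log2 fold change 2.63, adjusted p = 0.00344).

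Regulatory T cell and inhibitory receptor genes rose in part. All 18 tested regulatory T cell markers had positive log2 fold changes, with a median of 0.95. Over all 15204 genes 8197 were positive, with 5.22% called higher and 2.99% lower. Of the 18 markers 8 rose. The number higher was 4 without OTII replicate 2 or 3, 5 without OTII replicate 1 and 10 with the GC and length offsets. Foxp3, the factor that defines these cells, was at 31.7, 51.2 and 51.8 CPM in Cbl-b-/- OTII libraries, against 28.5, 31.1 and 34.3 CPM in OTII libraries, and the groups overlapped (adjusted p = 0.100). The summed level of the list was 573 to 839 CPM in Cbl-b-/- OTII libraries, against 369.9 to 382 CPM in OTII libraries. Ctla4, which competes with CD28 for its ligands, was at 15.5, 26.3 and 21 CPM in Cbl-b-/- OTII libraries, against 6.47, 4.31 and 3.41 CPM in OTII libraries (log2 fold change 2.14, adjusted p = 6.05e-05). Tnfrsf4, the costimulatory receptor OX40, was at 48.4, 84.5 and 43.2 CPM in Cbl-b-/- OTII libraries, against 16.1, 15.7 and 13 CPM in OTII libraries (log2 fold change 1.97, adjusted p = 6.31e-05). Tnfrsf9, the costimulatory receptor 4-1BB, was at 35.0, 49.0 and 32.0 CPM in Cbl-b-/- OTII libraries, against 12.1, 11 and 14.1 CPM in OTII libraries (log2 fold change 1.64, adjusted p = 8.03e-05). These 3 genes were higher in every knockout library. Of 18 inhibitory receptors 8 rose and 1 fell, with a median log2 fold change of 0.91, and the number higher was 4 without Cbl-b-/- OTII replicate 2, OTII replicate 2 or OTII replicate 3 and 5 without OTII replicate 1. With the GC and length offsets 8 rose and 0 fell. Tigit was at 1.35, 2.77 and 1.47 CPM in Cbl-b-/- OTII libraries, against 0.234, 0.342 and 0.323 CPM in OTII libraries (log2 fold change 2.62, adjusted p = 0.00188). Several of these genes are also expressed by effector cells, regulatory T cells and natural killer cells, and Klrg1 and Ctla4 stand in more than 1 of these lists.

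Markers of natural killer and innate-like T cells were measured beside these groups. Here and for the myeloid markers below, 5.22% of all genes were called higher and 2.99% lower. Positive log2 fold changes were found for 8197 of all 15204 genes. Of 16 listed natural killer and innate-like markers 12 passed the filter on low counts. Of the 12, 0 passed the test, and all 12 had positive log2 fold changes, with a median of 1.03. At an unadjusted p under 0.05 the number higher was 4 with edgeR, and after adjustment it was 1 with DESeq2, 0 with limma-voom or the GC and length offsets, 7 with no filter on low counts and 2 in a fit of the 6 libraries alone. Their summed level was 130.6 to 203 CPM in Cbl-b-/- OTII libraries, against 107 to 124 CPM in OTII libraries. Among the defining markers, Ncr1 was at 0, 0.545 and 0.410 CPM in Cbl-b-/- OTII libraries, against 0, 0 and 0.0359 CPM in OTII libraries, and Klrb1c at 1.15, 1.0 and 0.956 CPM in Cbl-b-/- OTII libraries, against 0.134, 0.137 and 0.251 CPM in OTII libraries (adjusted p = 0.0524). Trdc of gamma delta T cells was at 73.2, 103 and 96.5 CPM in Cbl-b-/- OTII libraries, against 64.7, 67.7 and 56.0 CPM in OTII libraries (adjusted p = 0.246). Klrc1, an NKG2 receptor listed with the CD8 T cell markers, had 102 counts over the Cbl-b-/- OTII libraries and 0 over the OTII libraries, at least 41.5-fold higher against a floor of 3 counts over the group, while Cd8a overlapped between the groups. Of 20 myeloid and dendritic cell markers 15 passed the filter, 2 rose and 1 fell, with 0 in either direction without Cbl-b-/- OTII replicate 2 or any 1 of the OTII libraries and 1 higher and 0 lower without Cbl-b-/- OTII replicate 1 or with the GC and length offsets. Their summed level was 586 to 770.5 CPM in Cbl-b-/- OTII libraries, against 449 to 496 CPM in OTII libraries. Lyz2 was at 32.3, 25.3 and 12.1 CPM in Cbl-b-/- OTII libraries, against 7.81, 9.88 and 9.15 CPM in OTII libraries (adjusted p = 0.230). The part of such cells in the effector, S100 and receptor results was not tested.

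**Figure D4:**
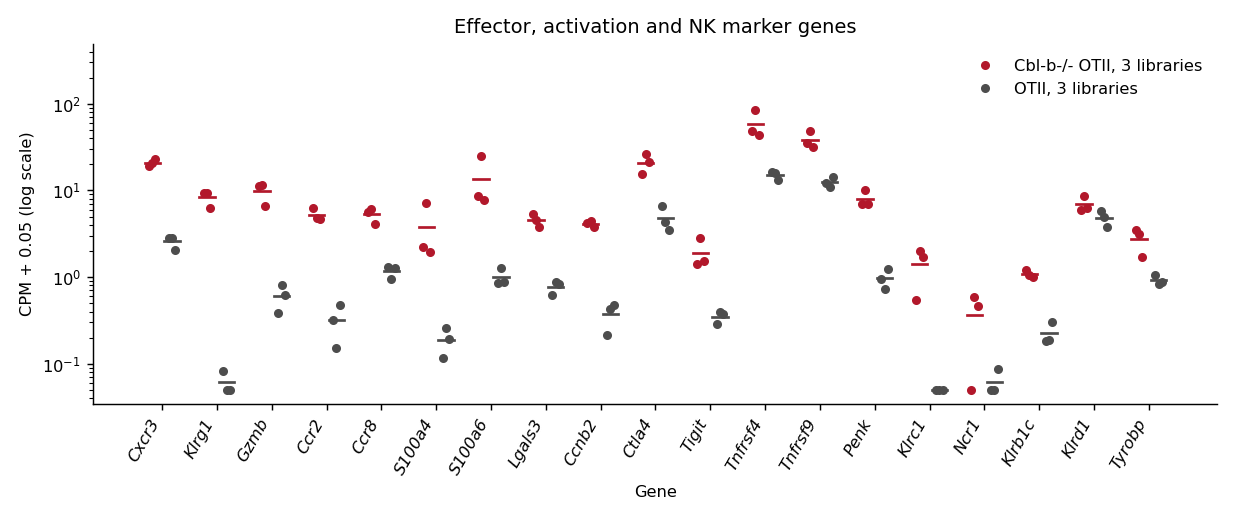
CPM plus 0.05 on a log scale for effector, activation and natural killer marker genes in each library, with Cbl-b-/- OTII libraries to the left and OTII libraries to the right of each gene and bars at the means of 3 libraries. Cxcr3 is at 18.9 to 22.9 CPM in Cbl-b-/- OTII libraries and 2.01 to 2.80 CPM in OTII libraries. Of the natural killer markers, Klrd1 is at 5.85 to 8.50 CPM in Cbl-b-/- OTII libraries and 3.77 to 5.67 CPM in OTII libraries, and Klrb1c at 0.956 to 1.15 CPM in Cbl-b-/- OTII libraries and 0.134 to 0.251 CPM in OTII libraries.

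Calls among genes of the receptor signalling machinery were mostly lower on all libraries and depended on single libraries. Over all genes tested 5.22% were called higher and 2.99% lower. Of 28 proximal signalling genes and Cbl-b targets 1 rose and 5 fell, with a median log2 fold change of -0.14, and with the GC and length offsets 1 rose and 1 fell. The 5 that fell, among them Plcg1 (-0.59), Vav1 (-0.51), Rapgef1 (-0.51) and Fyn (-0.44), were not stable, since 0 members were lower without Cbl-b-/- OTII replicate 2, OTII replicate 2 or OTII replicate 3, and 3 without Cbl-b-/- OTII replicate 1 or OTII replicate 1. Vav1, an exchange factor for Rac, and Plcg1, the phospholipase that starts the calcium signal, both act downstream of the receptor. Of 25 negative regulators 0 rose and 5 fell, with a median of -0.22, and 0 to 3 were lower in fits that left out a library (0 without OTII replicate 3, 1 without Cbl-b-/- OTII replicate 1, OTII replicate 1 or OTII replicate 2, 2 without Cbl-b-/- OTII replicate 2 and 3 without Cbl-b-/- OTII replicate 3) and 3 with the GC and length offsets. In the PI3K, AKT and FOXO list 0 of 28 rose and 3 fell, in the calcium and NFAT list 0 of 19 rose and 3 fell, and in the NF-kB list 0 of 24 rose and 2 fell. The medians were -0.16 for PI3K, -0.27 for NFAT and -0.10 for NF-kB. With the GC and length offsets 1 rose and 0 fell in the PI3K list, 0 rose and 1 fell in the NFAT list, and 3 rose and 1 fell in the NF-kB list, so that the balance of calls turned for PI3K and NF-kB. All 3 lists dropped to 0 lower members without Cbl-b-/- OTII replicate 2 or OTII replicate 3. Without Cbl-b-/- OTII replicate 1 the lower members numbered 1, 1 and 0 in the same order of lists, and without OTII replicate 2 they numbered 1, 0 and 0. The NF-kB list had 0 without Cbl-b-/- OTII replicate 3 and 1 without OTII replicate 1. Cd28, whose requirement Cbl-b sets, had a log2 fold change of 0.01.

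Reporters of recent receptor signalling did not move together, and over all genes 5.22% were called higher and 2.99% lower. Of 25 such genes 5 rose and 1 fell, with a median log2 fold change of 0.29, the number higher was 3 without any 1 of the libraries other than OTII replicate 3, and 2 without that library. The number lower was 2 without Cbl-b-/- OTII replicate 2, 3 without Cbl-b-/- OTII replicate 3 and 1 without any 1 of the others. The GC and length offsets gave 4 higher and 2 lower. Egr1, an immediate early transcription factor, was at 53.9, 44.9 and 56.7 CPM in Cbl-b-/- OTII libraries, against 130.3, 125 and 124 CPM in OTII libraries. It fell by 1.29 on the log2 scale (SE 0.17, adjusted p = 0.000134), and its log2 fold change in W131AOTII cells was -0.76 (adjusted p = 0.0117), a call that was lost without Cbl-b-/-W131AOTII replicate 1 or W131AOTII replicate 2. Egr1 also stands in the list of heat shock and tissue handling genes, of which 2 of 22 tested rose and 1, Egr1, fell. In that list 0 rose without any 1 library other than Cbl-b-/- OTII replicate 3. The part of handling in the fall of Egr1 was not tested. Nr4a1, another early factor, was at 28.3, 35.3 and 27.7 CPM in Cbl-b-/- OTII libraries, against 40.5, 38.9 and 40.2 CPM in OTII libraries (adjusted p = 0.121). Cd69 and Cd5, surface proteins that track receptor signalling, had log2 fold changes of -0.07 and -0.16 and did not pass. Tnfrsf4 and Tnfrsf9, given above, were the reporters that rose in every fit.

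Of the ubiquitin ligases that are linked to anergy, Dtx1 fell most. Dtx1, which encodes Deltex1, a Notch-regulated ligase, was at 159, 171 and 146 CPM in Cbl-b-/- OTII libraries, against 421, 579 and 614 CPM in OTII libraries (log2 fold change -1.76, SE 0.22, adjusted p = 9.39e-05). It was at 192, 279 and 248 CPM in Cbl-b-/-W131AOTII libraries, against 515, 641 and 725 CPM in W131AOTII libraries (log2 fold change -1.39, adjusted p = 0.00139), and the difference between the effects did not pass (adjusted p = 0.639). Rasal1, a Ras GTPase-activating protein, ends next to Dtx1 on chromosome 5 (120648812 to 120679597 on the plus strand, with Dtx1 at 120680202 to 120711927 on the minus strand). Rasal1 was at 9.60, 10.6 and 7.13 CPM in Cbl-b-/- OTII libraries, against 19.9, 22.2 and 23.7 CPM in OTII libraries (log2 fold change -1.27, adjusted p = 0.00732). Since the strand setting of the counting is not given, reads that run past the end of either gene could not be assigned to it with certainty. Here and for the Notch genes below, 5.22% of all genes were called higher and 2.99% lower. In the whole list of CBL proteins, partners and anergy-linked ligases 22 of 23 genes passed the filter on low counts. Of these 1 rose and 3 fell, Cblb, Cbl and Dtx1. Cblb is the knocked-out gene itself, and the call of Cbl was not stable, as given above. Ndfip1, an adaptor of the NEDD4 family ligases, was called higher (0.69). That call was lost in each of the 6 fits that left out a library, with an adjusted p of up to 0.191. Other ligases of the list did not pass, with log2 fold changes of -0.12 for Itch, -0.10 for Nedd4 and 0.84 for Rnf128 (GRAIL). Rnf128 was rare, at 0, 0.682 and 0.546 CPM in Cbl-b-/- OTII libraries, against 0.100, 0.205 and 0.395 CPM in OTII libraries. Among 21 Notch pathway genes 1 rose and 2 fell, and in each of the 6 fits that left out a library 0 rose. The genes that fell were Dtx1 and Dtx4 (-0.99), the second of which was lost without OTII replicate 3 (adjusted p = 0.0512). Notch1 itself did not pass (-0.40).

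The other genes with the strongest calls among those that fell at least 2-fold came from no single list. Ide, the insulin-degrading enzyme, was at 94.4, 78.8 and 110.3 CPM in Cbl-b-/- OTII libraries, against 188, 192 and 202 CPM in OTII libraries (log2 fold change -1.04, adjusted p = 0.000162). Prag1, a pseudokinase scaffold that binds the kinase Csk, was at 30.1, 29.9 and 31.1 CPM in Cbl-b-/- OTII libraries, against 70.2, 86.2 and 93.5 CPM in OTII libraries (log2 fold change -1.46, adjusted p = 0.000283). Prag1 also fell by 1.13 in W131AOTII cells (adjusted p = 0.00467), whereas the value of Ide there was -0.11 (adjusted p = 0.654). Padi2, a peptidylarginine deiminase, fell by 1.04 (adjusted p = 0.00487), and the scaffold gene Tanc1 fell by 1.07 (adjusted p = 0.00271). Trim2, a RING-finger ubiquitin ligase, was at 0.6, 0.909 and 0.888 CPM in Cbl-b-/- OTII libraries, against 3.97, 3.66 and 4.38 CPM in OTII libraries (log2 fold change -2.31, adjusted p = 6.05e-05). Rasgrp4, a Ras exchange factor, was lower still, at 0.150, 0.0909 and 0.512 CPM in Cbl-b-/- OTII libraries, against 1.67, 1.71 and 1.18 CPM in OTII libraries (log2 fold change -2.48, adjusted p = 0.00675), and its log2 fold change was -3.64 without Cbl-b-/- OTII replicate 3. Lbp, which encodes a lipopolysaccharide-binding protein, was at 6.45, 7.23 and 5.91 CPM in Cbl-b-/- OTII libraries, against 20, 16.2 and 15.2 CPM in OTII libraries (log2 fold change -1.40, adjusted p = 0.00585). Each of these genes was lower in all 3 knockout libraries than in any OTII library, which the rule that named them required. The rule also named Bpifa2 (-4.65), Aldh1l1 (-2.04), Unc5a (-1.94), Aqp9 (-1.57) and Osgin1 (-1.43), again only among genes without overlap. Without Cbl-b-/- OTII replicate 1 the value of Bpifa2 was -5.50.

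Further genes that rose include Ms4a6b, Tspan3 and Il15ra. Ms4a6b, a membrane protein of the MS4A family, was at 1937, 2474 and 1827 CPM in Cbl-b-/- OTII libraries, against 1227, 1051 and 985 CPM in OTII libraries (log2 fold change 0.94, adjusted p = 0.00391). The tetraspanin Tspan3 was at 136, 159.9 and 126 CPM in Cbl-b-/- OTII libraries, against 60.4, 57.4 and 55.3 CPM in OTII libraries (log2 fold change 1.28, SE 0.12, adjusted p = 1.06e-05). Il15ra, which presents interleukin-15, was at 32.2, 32.6 and 34.2 CPM in Cbl-b-/- OTII libraries, against 19.4, 19.8 and 19.9 CPM in OTII libraries (log2 fold change 0.74, adjusted p = 0.00439). The knockout libraries lay above the OTII libraries for all 3 genes. Of 36 cytokine and cytokine receptor genes 32 passed the filter on low counts, 8 rose and 5 fell. Here and for the lists that follow, 5.22% of all genes were called higher and 2.99% lower. The number higher was 3 without OTII replicate 1 or 3, 4 without Cbl-b-/- OTII replicate 2 or OTII replicate 2 and 5 without Cbl-b-/- OTII replicate 3. The number lower was 0 without OTII replicate 2 or 3, 1 without Cbl-b-/- OTII replicate 1, 2 without Cbl-b-/- OTII replicate 2 or OTII replicate 1 and 3 without Cbl-b-/- OTII replicate 3. Under the GC and length offsets 8 rose and 1 fell. Of 27 cell cycle genes 5 rose and 0 fell, with 1 left without OTII replicate 2 or 3. With 2 left without Cbl-b-/- OTII replicate 2 or OTII replicate 1, 3 were left with the GC and length offsets. Their summed level overlapped between the groups, at 1589 to 1975 CPM in Cbl-b-/- OTII libraries, against 1693 to 2014 CPM in OTII libraries. Ccnb2, cyclin B2, was at 4.20, 4.36 and 3.72 CPM in Cbl-b-/- OTII libraries, against 0.167, 0.376 and 0.430 CPM in OTII libraries (log2 fold change 3.65, adjusted p = 0.0019). Glycolysis genes gave 1 of 22 higher and 0 lower, and cholesterol synthesis genes gave 0 of 23 in either direction. In the cholesterol list 7 had an unadjusted p under 0.05 with edgeR (2 higher and 5 lower), and after adjustment DESeq2 called 3 and limma-voom 0. Naive and quiescence genes gave 2 of 24 higher and 4 lower, with a median of -0.22, and the lower calls numbered 2 without Cbl-b-/- OTII replicate 1 and 0 without Cbl-b-/- OTII replicate 2, OTII replicate 2 or OTII replicate 3, with 1 lower under the GC and length offsets. Ribosomal protein genes gave 40 of 81 higher and 0 lower, but 2 without Cbl-b-/- OTII replicate 2, 7 without OTII replicate 1, 12 without OTII replicate 2, 1 without OTII replicate 3 and 29 with the GC and length offsets.

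Genes near Cblb on chromosome 16 were examined because a knockout allele is carried on a stretch of linked DNA. The window of 10 Mb either side was chosen after the values were seen. Of 70 genes tested in it, Cblb left out, 10 were called (14.3%), all 10 higher, against 41 of 399 (10.3%) on the rest of the chromosome and 8.21% of all genes. In both Cbl-b comparisons 5 of the 70 were called in the same direction (7.14%), against 9 of 399 (2.26%) on the rest of the chromosome and 1.86% of all genes except Cblb. Of the 10, the calls of Gm17809, Dubr, Cmss1 and Gpr15 were lost without OTII replicate 3, and the last 3 of these also without OTII replicate 2 and in 2 or more of the other 4 such fits. Tbc1d23, a protein of vesicle capture at the Golgi, lies 5.08 Mb beyond Cblb and was at 46.2, 38.1 and 55.4 CPM in Cbl-b-/- OTII libraries, against 19.1, 16.2 and 20.2 CPM in OTII libraries (log2 fold change 1.33, adjusted p = 0.000453). It rose by 1.60 in W131AOTII cells (adjusted p = 9.48e-05). Cep97, a centriolar protein gene at 3.80 Mb, was at 147, 144 and 176 CPM in Cbl-b-/- OTII libraries, against 84.1, 77.6 and 76.0 CPM in OTII libraries (log2 fold change 0.97, adjusted p = 0.000315), and rose by 1.0 in W131AOTII cells. The pseudogene Gm8900 beside it was at 4.20, 3.46 and 1.88 CPM in Cbl-b-/- OTII libraries, against 0.0668, 0.0342 and 0.0717 CPM in OTII libraries, with log2 fold changes of 5.68 in OTII cells and 5.33 in W131AOTII cells. Cd200r4, an activating receptor at -7.29 Mb, was at 23.0, 26.1 and 28.2 CPM in Cbl-b-/- OTII libraries, against 8.71, 9.40 and 7.82 CPM in OTII libraries (log2 fold change 1.57, adjusted p = 0.000162). Its log2 fold change in W131AOTII cells was 0.91 (adjusted p = 0.0151), a call that was lost without Cbl-b-/-W131AOTII replicate 1, W131AOTII replicate 2 or W131AOTII replicate 3. Tigit, described above, lies in the same window at -8.46 Mb, and Nxpe3 at 3.75 Mb rose by 0.90 (adjusted p = 0.00297). For these genes the loss of Cbl-b and differences in the linked DNA cannot be told apart.

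**Figure D5:**
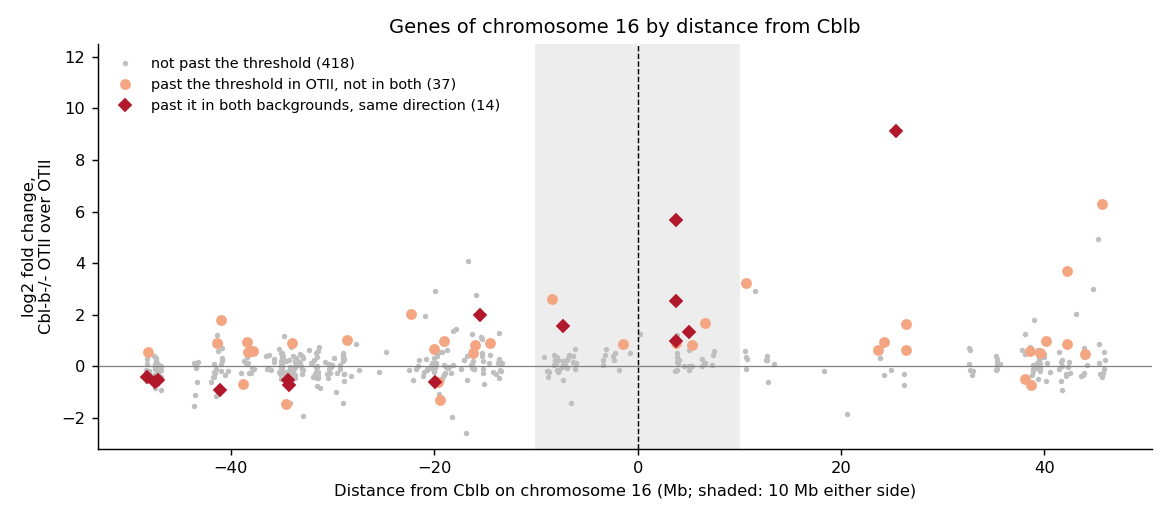
Log2 fold change of Cbl-b-/- OTII over OTII for 469 tested genes of chromosome 16 by distance from Cblb, with the window of 10 Mb either side shaded and diamonds for genes called in the same direction in both ZAP-70 backgrounds. All 10 called genes in the window lie above 0, from 0.81 to 5.68, and 5 of them are diamonds.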

How the data were processed

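Libraries were made from total RNA of sorted cells with Nugen and Nextera XT reagents and sequenced as single-end reads on an Illumina HiSeq instrument, per the labels' protocols. The authors deposited raw counts per gene for all libraries, and the submitters' processing notes name STAR 2.7.2, GRCm38 and DESeq2. The sources used here do not give the counting step, annotation release or strand setting. Names came from GENCODE M21, which matched 55536 of 55536 identifiers. No column was left without a sample. The deposited counts were tested with edgeR 4.0.16 in R 4.3.3 by the quasi-likelihood method with TMM scaling, over 15204 genes kept by filterByExpr, in 1 fit of all 18 libraries and 6 groups with 12 residual degrees of freedom. The adjusted p threshold was 0.05 (Benjamini-Hochberg). The procedure was first tested on simulated data. Counting intervals are at 95% and cover counting error only, and a floor is 3 counts over a group. DESeq2 1.42.0 and voom of limma 3.58.1 served as alternatives, with other scalings, filters, library subsets, offsets for GC content and length, a replicate block and leaving out each library.

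Members and the 34 gene lists were chosen with earlier results of these data known. Genes were named by a rule: Cblb, Cbl and Zap70, the 15 strongest calls higher and the 15 strongest lower among genes changed at least 2-fold without overlap, up to 5 called members of each list, the 2 most abundant markers of each other cell type, and the 10 most abundant called genes. For the 15 strongest calls in each direction the lack of overlap was a condition of the choice and adds nothing to the test. Other IRG and GBP members, the genes near Cblb, the antiviral genes described for W131AOTII cells, the ligases and receptors given without a call, Trdc, Ncr1, Klrb1c and Gm8900 were named after their values were seen. Between replicates, counts differed by 13.28 to 128.3 times the sampling variance (chi-square per degree of freedom), so no library was counted as a copy of another. Some results on single genes are not reported here. The thymocyte libraries entered the fit and are not described.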

Additional observations from a re-analysis of the deposited data

Results flagged for a closer look

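The effect of Cbl-b loss differed between cells with normal ZAP-70 and cells with W131A ZAP-70 for 26 of the genes named by the rule, by the test of the difference itself. Values are the log2 effect in OTII cells minus that in W131AOTII cells, with edgeR's adjusted p. Genes that were named after their values were seen and whose effects also differed are given with the results. With 3 libraries a group, no library was tested as an outlier within its group.

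Among interferon-induced genes the difference was 1.17 for Igtp (adjusted p = 0.000569), 1.40 for Gm12250, 0.92 for Gbp3, 1.24 for Zbp1, 1.67 for Rtp4, 2.55 for Ifi27l2a, 2.31 for Serpina3g, 4.50 for Serpina3f, 1.60 for Il18bp and 2.89 for Ube2l6 (adjusted p = 0.000204). All of these were larger in OTII cells. Among receptors and effector genes it was 3.53 for Cxcr3 (adjusted p = 0.000204), 2.71 for Ccr8, 6.02 for Ccr2, 3.53 for Gzmb, 6.61 for Klrg1, 8.14 for Klrc1, 1.55 for Tnfrsf4 and 2.95 for Penk, which encodes proenkephalin. Klrg1 had 1 count and Klrc1 0 counts over the OTII libraries, so their fitted differences depend on the prior count and do not measure size. Further genes with a larger effect in OTII cells were S100a4 (4.03), S100a6 (3.64), Lgals3 (3.13), Ccnb2 (3.99), Bhlhe40 (1.71) and the macrophage gene Mpeg1 (4.67). The effect was more negative in OTII cells for Ide (-0.93) and Trim2 (-1.98).

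The differences of Ccr2, Ccr8, Cxcr3, Gm12250, Igtp, Il18bp, Penk, Rtp4, Serpina3g, Trim2, Ube2l6 and Zbp1 passed in all 12 fits that left out a library. Those of Bhlhe40, Ccnb2, Gzmb, Ide, Klrc1, Klrg1, Lgals3 and Tnfrsf4 did not pass without W131AOTII replicate 2, the library in which the B cell markers and Lyz2 were highest, and without it the difference for Ccr2 was 4.71. In OTII cells taken alone, the calls of Rtp4 and Bhlhe40 were lost without OTII replicate 3, those of Ifi27l2a and Zbp1 without Cbl-b-/- OTII replicate 2, OTII replicate 2 or OTII replicate 3, and that of Mpeg1 without Cbl-b-/- OTII replicate 2 or any 1 of the OTII libraries. The remaining differences were lost without at least 1 other library. The part of other cells in these differences was not tested.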

How the results depend on the processing

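Against 1249 genes called (794 higher, 455 lower), DESeq2 called 2054 (1253 and 801), no filter on low counts 1907 (785 lower), the 12 peripheral libraries alone 2231 (1212 and 1019), the 6 libraries compared alone 1026 (546 and 480), and offsets for GC content and length 799 (587 and 212). Leaving out 1 library gave 150 to 1586 called, 103 to 1090 higher and 47 to 496 lower. For the difference between the effects (96, 90 and 6), DESeq2 gave 233, 210 and 23, the GC and length offsets 164, 150 and 14, the 12 peripheral libraries 13 lower, and leaving out 1 library 49 to 169, 46 to 156 and 3 to 13. In W131AOTII cells leaving out 1 library, an alternative chosen after seeing the data, gave 124 to 1411 called, 29 to 398 higher and 95 to 1013 lower.

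Of the list of interferon-gamma signalling and antigen processing genes, 5 to 11 were higher and 0 to 1 lower without 1 library, and 1 was lower with DESeq2 size factors, the 6 libraries alone, or the GC and length offsets with or without the block. Of the effector list, 7 were higher with limma-voom, 19 with no filter on low counts and 4 to 11 without 1 library. Its lower members numbered 1 with library size alone, the 6 libraries or the 12 peripheral libraries, 2 with DESeq2, no filter, the block, or the offsets with or without the block, and 0 to 1 without 1 library. The IRG and GBP list had 14 to 19 members higher without 1 library. Of values for named genes under alternatives, 1711 kept their side of the threshold, 390 lost it and 4 gained it, and 0 changed direction past it. The cause was not tested.

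Replicate numbers are shared between the groups, and the labels do not say whether they pair samples. Deviations from the group mean correlated at -0.0246, 0.100 and 0.0483 between same-numbered libraries. With 3 libraries a group these values cannot decide whether the numbers pair samples. With the replicate block on the 6 libraries 1577 genes were called, against 1026 without it. With the block and the GC and length offsets 719 were called (171 lower). With the block, with and without the offsets, 4 and 5 B cell markers were lower, 3 and 3 natural killer markers higher, and 0 and 2 proximal signalling genes higher, with 0 and 6 lower. Not every library correlated best with its own number. With 3 libraries a group and 19708218 counts in the smallest, changes of rare transcripts have wide intervals.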

Other observations

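Some rare transcripts had counts in 1 genotype and 0 in the other, and they were chosen after their values were seen. Mir99ahg, a host transcript of microRNAs on chromosome 16, had 181 counts over the 3 Cbl-b-/- OTII libraries and 0 over the 3 OTII libraries, at least 73.7-fold higher against a floor of 3 counts over the group. It was at 0.615, 0.598 and 1.18 CPM in Cbl-b-/-W131AOTII libraries, against 0, 0.0643 and 0 CPM in W131AOTII libraries. The mitochondrial gene mt-Nd3, a subunit of complex I, was at 0 counts in the 3 Cbl-b-/- OTII libraries, against 45 counts in the 3 OTII libraries (adjusted p = 0.0107). It was also at 0 counts in the Cbl-b-/-W131AOTII libraries, against 0.595, 0.643 and 0.605 CPM in W131AOTII libraries. Both genes differed in the same direction in each ZAP-70 background. The haemoglobin gene Hbb-bs had 54 counts over the Cbl-b-/- OTII libraries and 0 over the OTII libraries, at least 22.0-fold higher (adjusted p = 0.0363). That call was lost with the GC and length offsets and without Cbl-b-/- OTII replicate 2 or 3 or any 1 of the OTII libraries.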
